A study of Rattus norvegicus with 13 samples.

Results

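The collagen and laminin genes of the lens were described here across 13 arrays of cultured rat lenses. Members were all genes named Col or Lam with the numbering of a collagen or laminin chain and a probe set of their own on the array. There were 45 of them among 18166 genes, namely 5 collagen IV genes, 9 laminin genes and 31 other collagen genes. Lenses of 6-week-old male Sprague Dawley rats were kept ex vivo in M199 medium, and RNA of the whole lens was hybridised to arrays of the type GeneChip Rat Gene 2.0 ST. The control (n = 1) had no galactose and was cultured for 4 days, and lenses in 30 mM galactose, which develop a cortical opacity, were taken on Day 4 (n = 3) and on Day 6 (n = 3). Inhibitors of histone acetyltransferases, the enzymes that add acetyl groups to histones, were added once the opacity had formed. Each treatment was 1 array of Day 6 in galactose: C646 at 40 µM and CBP30 at 10 µM, which target CBP/p300, CPTH2 at 80 µM, which targets Gcn5, C646 with CPTH2, CBP30 with CPTH2, and TH1834 at 50 µM, which targets Tip60. Galactose Day 6 therefore differed from the control in culture time as well as in galactose. In the study, 1 lens of a rat received inhibitor in DMSO and the other lens DMSO alone. The sources used here do not say which arrays, replicates among them, are lenses of the same animal. The p-values therefore measure the spread between these samples, taken from the galactose replicates within each day. A condition with 1 array adds no spread of its own. In RNA of a whole lens, fewer cells of a type and less RNA per cell cannot be told apart.

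The lens capsule is the thick basement membrane that encloses the lens. It is laid down by the lens epithelium at the front and by fibre cells toward the back. Its network is built from collagen IV, whose chains wind into trimers and join end to end, and from laminins, trimers of an alpha, a beta and a gamma chain that bind receptors on the cell surface. Nidogens link both networks. Col4a1 and Col4a2 encode the chains found in nearly every basement membrane, while Col4a3, Col4a4 and Col4a5 encode the chains of specialised basement membranes of kidney, eye and ear, which are affected in human Alport syndrome.

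The collagen IV genes lie in pairs, head to head, and the 2 pairs measured here share promoter sequence. In RefSeq's GRCr8 assembly of the rat genome, Col4a1 starts at position 84885597 of chromosome 16 and Col4a2 starts 77 bases away on the other strand. On chromosome 9, Col4a3 and Col4a4 start 413 bases apart on opposite strands. Of 33469 promoter windows, 9.28% have a divergent start within 500 bases. Each window runs from 250 bases before to 50 bases after the start, and 38 of the 45 members have one. The windows below are shown because those of a pair overlap. Signal extremes were not particular to a pair. Col4a1 to Col4a4 were all highest in the control, and all 5 collagen IV genes were lowest with C646+CPTH2. A link between promoter and signal was not tested. Capitals mark matches, on either strand, to the GC box GGGCGG or the CCAAT box.
Col4a1 promoter: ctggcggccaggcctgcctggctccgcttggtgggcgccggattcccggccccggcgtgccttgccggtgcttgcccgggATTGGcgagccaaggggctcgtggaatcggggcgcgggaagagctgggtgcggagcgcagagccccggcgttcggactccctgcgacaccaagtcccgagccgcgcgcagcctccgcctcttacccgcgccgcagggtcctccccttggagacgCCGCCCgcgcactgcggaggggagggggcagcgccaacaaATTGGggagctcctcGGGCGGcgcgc
Col4a3 promoter: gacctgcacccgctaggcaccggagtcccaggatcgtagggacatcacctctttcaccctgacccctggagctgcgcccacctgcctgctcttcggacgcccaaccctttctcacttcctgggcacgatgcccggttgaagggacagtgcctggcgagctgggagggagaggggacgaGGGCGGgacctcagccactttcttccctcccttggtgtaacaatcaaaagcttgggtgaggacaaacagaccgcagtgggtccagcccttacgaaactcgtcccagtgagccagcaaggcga
Col4a4 promoter: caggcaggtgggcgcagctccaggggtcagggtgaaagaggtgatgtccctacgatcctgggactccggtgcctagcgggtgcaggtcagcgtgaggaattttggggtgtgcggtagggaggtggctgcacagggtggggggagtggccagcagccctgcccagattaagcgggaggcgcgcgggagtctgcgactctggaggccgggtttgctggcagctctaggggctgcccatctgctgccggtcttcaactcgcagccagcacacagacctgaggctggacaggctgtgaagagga
The Col4a1 window is chr16:84885347-84885646 on the plus strand. It has Col4a1's start at position 251 and Col4a2's start, on the other strand, at position 174, so the Col4a2 window shares 176 of its bases. The Col4a3 window is chr9:91323740-91324039 on the plus strand and the Col4a4 window is chr9:91323528-91323827 on the minus strand, and 88 bases are common to both. The Col4a1 window has 2 GC boxes and 2 CCAAT boxes, the Col4a3 window has 1 GC box, and neither motif is in the Col4a4 window. A GC box is in 33.1% and a CCAAT box in 37.5% of all windows. The sequence TATAAA, found in 14.2% of windows, is in none of the 5 collagen IV windows. A match is a description of the letters and does not show that a factor binds there.

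All 5 collagen IV genes reached a log2 signal of 5, the minimum that the study set for a gene to be kept, in at least 1 array. Of the 9 laminin genes, Lama5 and Lamc1 did, and of the 31 other collagens, Col5a1 and Col23a1 did. In all, 9 of 45 members (20%) reached 5, against 6778 of 18166 genes (37.3%). A signal of 6 was reached by 7 members, and Col4a1, Lama5 and Lamc1 were at 5 or more in every array. The probes of different genes differ in brightness, so a signal below 5 does not show that a gene is silent, and the signals of different genes were not set against each other. Among the laminins under 5, the beta chain genes Lamb2 and Lamb3 were at means of 4.09 and 2.17. The mean of Lama1, an alpha chain gene known from early basement membranes, was 4.37, and those of Lama2, Lama3, Lama4 and Lamc3 were 2.80 to 3.45. Lamb1 and Col4a6 were not analysed here.

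**Figure D1:**
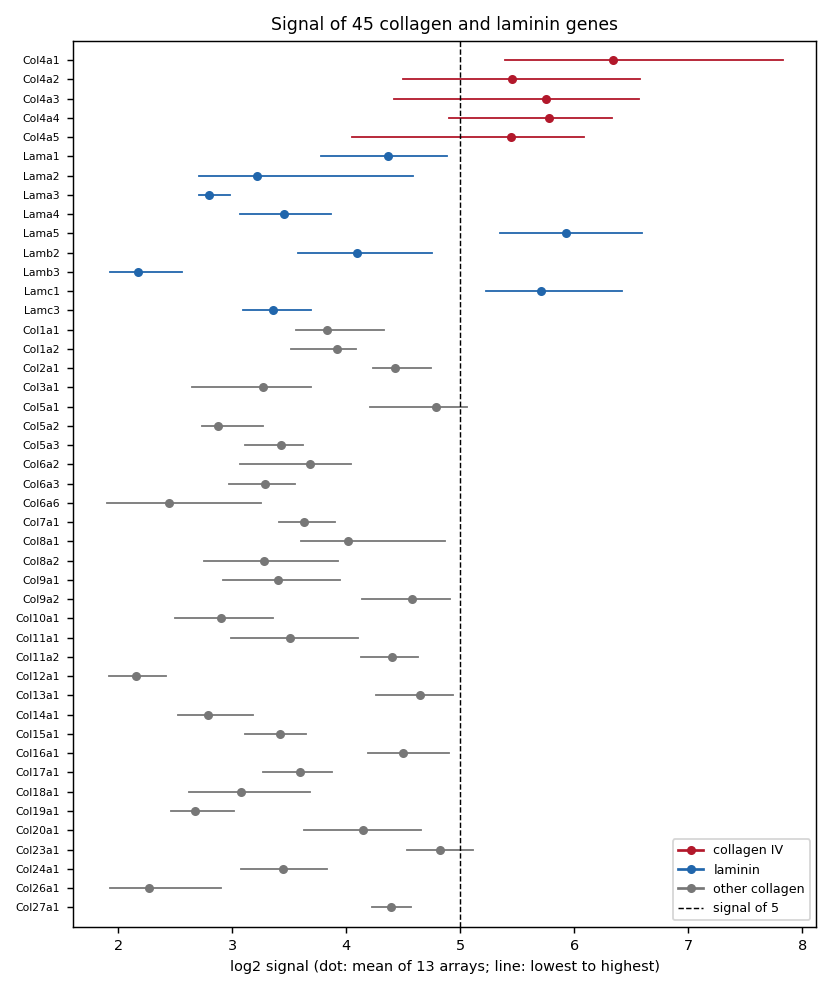
Log2 signal of the 45 collagen and laminin genes, with the mean of 13 arrays as a dot and the lowest to highest array as a line, by gene family. All 5 collagen IV genes, Lama5, Lamc1, Col5a1 and Col23a1 reach the dashed line at 5, and 36 genes stay below it in every array.

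Most other collagens stayed under 5. The 29 other collagens that never reached it had means of 2.16 to 4.65, and those of highest mean were Col13a1 at 4.65, Col9a2 at 4.58, Col16a1 at 4.50 and Col2a1 at 4.43. Col1a1 and Col1a2, the chains of the collagen of skin and bone, and Col3a1, their partner in soft tissue, were among them. Of the 8 fibroblast markers examined none reached 5, the highest value being 4.21. None of the 4 endothelial, 7 pigment epithelial, 3 corneal or 5 photoreceptor markers on the array did either. All 7 lens fibre markers were kept, at a mean of 11.32 to 11.73, and 8 of 10 lens epithelium markers were kept, without Krt8 and Krt18. The exceptions among other cell types were Des of 5 smooth muscle markers, at 6.23 in the control and at most 4.77 elsewhere, Oaf of 6 ciliary and vitreous markers, and Cd68 and Lyz2 of 10 macrophage markers, with a mean of 3.52 to 5.48 that was highest with C646+CPTH2. Over the genes kept, array medians were 5.62 to 5.89 and 4989 to 5537 genes per array were at 5.

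In the galactose lenses, 4 of the 5 collagen IV genes had lower signals than the control lens, most of all Col4a1. Col4a1 was at 7.83 in the control, at 5.61, 6.46 and 6.64 on Day 4 and at 6.10, 6.30 and 7.09 on Day 6. With inhibitors it was at 6.35 (C646), 6.29 (CBP30), 5.91 (CPTH2), 5.40 (C646+CPTH2), 6.16 (CBP30+CPTH2) and 6.29 (TH1834). The control was the highest of all 13 arrays and C646+CPTH2 the lowest, and the galactose array nearest to the control was Day 6 replicate 3. The galactose Day 4 mean was 6.23 ± 0.55 and the Day 6 mean 6.50 ± 0.53 (SD, n = 3 each). The difference from the control was -1.59 on Day 4 (95% interval -2.62 to -0.56, adjusted p = 0.0861 in limma) and -1.33 on Day 6 (-2.36 to -0.30, adjusted p = 0.122).

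Col4a2, which encodes the partner chain of Col4a1, was at 6.58 in the control, at 4.95, 5.74 and 5.83 on Day 4 and at 4.93, 5.69 and 6.08 on Day 6. With inhibitors it was at 5.20 (C646), 5.57 (CBP30), 5.07 (CPTH2), 4.50 (C646+CPTH2), 5.25 (CBP30+CPTH2) and 5.49 (TH1834). Here too the control stood above every other array, replicate 1 of both galactose days was below the other galactose arrays, and C646+CPTH2 was the lowest. Its difference from the control was -1.07 on Day 4 (-2.10 to -0.04, adjusted p = 0.211), and that of Day 6 was -1.01 (-2.04 to 0.02, adjusted p = 0.218).

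Col4a3 was at 6.57 in the control, at 5.16, 6.01 and 6.17 on Day 4 and at 5.22, 5.87 and 6.42 on Day 6, and with inhibitors at 5.75 (C646), 5.75 (CBP30), 5.54 (CPTH2), 4.42 (C646+CPTH2), 5.87 (CBP30+CPTH2) and 6.00 (TH1834). Col4a4, its partner in trimer and promoter, was at 6.33 in the control, at 5.35, 5.79 and 6.09 on Day 4 and at 5.72, 5.59 and 6.30 on Day 6, and with inhibitors at 5.79 (C646), 5.79 (CBP30), 5.70 (CPTH2), 4.90 (C646+CPTH2), 5.85 (CBP30+CPTH2) and 5.86 (TH1834). Both were highest in the control, with Day 6 replicate 3 just below it, and both were lowest with C646+CPTH2. The differences from the control were -0.79 and -0.58 on Day 4 (adjusted p = 0.383 and 0.372) and -0.73 and -0.46 on Day 6 (adjusted p = 0.401 and 0.469). Their intervals include 0, with bounds on Day 4 of -1.87 to 0.30 for Col4a3 and -1.37 to 0.20 for Col4a4.

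Col4a5, on chromosome X, encodes the third chain of the trimer with Col4a3 and Col4a4, and its control value lay among the galactose arrays. It was at 5.73 in the control, at 4.57, 5.93 and 5.94 on Day 4 and at 5.26, 5.77 and 6.08 on Day 6, and with inhibitors at 5.33 (C646), 5.64 (CBP30), 5.19 (CPTH2), 4.05 (C646+CPTH2), 5.82 (CBP30+CPTH2) and 5.43 (TH1834). The control was below 4 galactose arrays and above replicate 1 of both days. The difference of -0.26 on Day 4 (-1.44 to 0.92, adjusted p = 0.830) became 0.20 without Day 4 replicate 1, and that of -0.03 on Day 6 (adjusted p = 0.981) became 0.19 without Day 6 replicate 1.

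**Figure D2:**
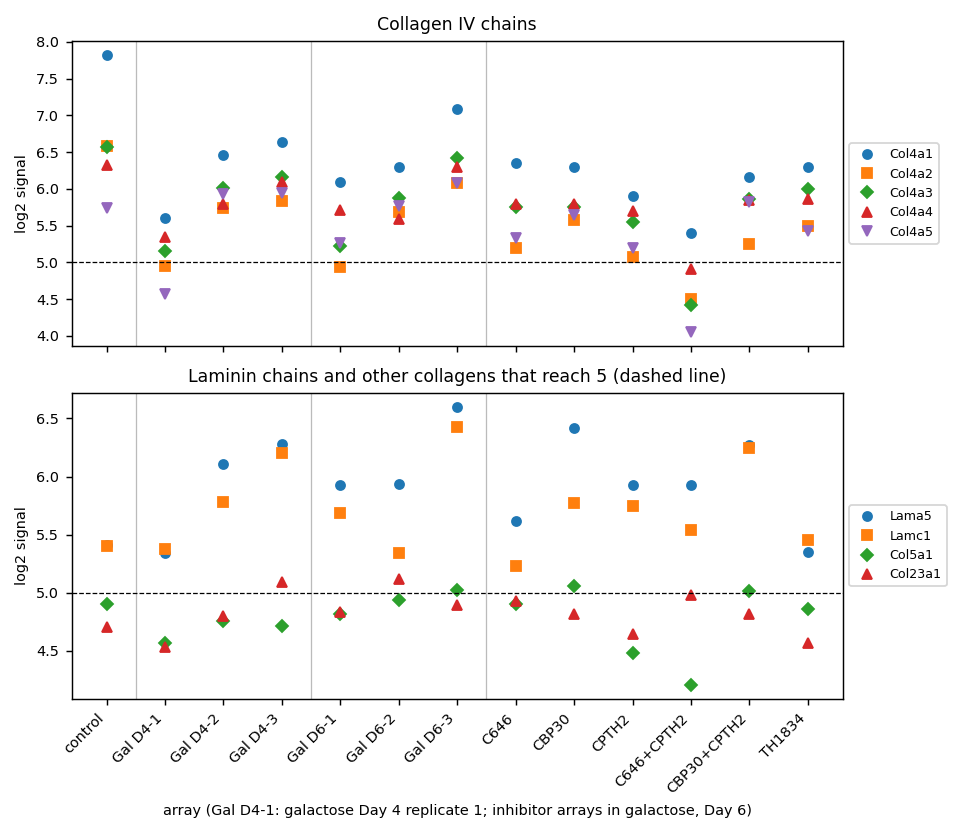
Log2 signal of the 9 genes that reach 5 (dashed line), in each of the 13 arrays, with collagen IV above and laminins and other collagens below. The control is highest for Col4a1 to Col4a4, the C646+CPTH2 array is lowest for the 5 collagen IV genes and Col5a1, and Lama5 and Lamc1 have neither pattern.

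The laminin genes Lama5 and Lamc1 had another order of arrays than collagen IV, though the difference between the families was not tested. Lama5, the alpha chain gene of the main laminins of mature epithelial basement membranes, was at 5.41 in the control, at 5.34, 6.11 and 6.28 on Day 4 and at 5.92, 5.93 and 6.60 on Day 6. With inhibitors it was at 5.62 (C646), 6.42 (CBP30), 5.92 (CPTH2), 5.92 (C646+CPTH2), 6.27 (CBP30+CPTH2) and 5.35 (TH1834). The control was at the low end, together with Day 4 replicate 1 and TH1834, and 5 of 6 galactose arrays were above it. The differences from the control were 0.50 on Day 4 (-0.38 to 1.39, adjusted p = 0.503) and 0.74 on Day 6 (-0.14 to 1.63, adjusted p = 0.288). Lamc1, the gamma chain gene shared by most laminins, was at 5.41 in the control, at 5.37, 5.78 and 6.21 on Day 4 and at 5.68, 5.34 and 6.42 on Day 6, and with inhibitors at 5.23 (C646), 5.77 (CBP30), 5.74 (CPTH2), 5.54 (C646+CPTH2), 6.24 (CBP30+CPTH2) and 5.45 (TH1834). Its control value fell inside the range of both galactose groups, at differences of 0.38 (adjusted p = 0.661) and 0.41 (adjusted p = 0.613).

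The remaining laminins had low signals and were fitted only without the minimum on signal. Lama1 was at 4.88 in the control, at 4.23, 4.47 and 4.73 on Day 4 and at 4.20, 4.58 and 4.82 on Day 6, and at 3.77 to 4.35 with inhibitors, lowest with C646+CPTH2. Lamb2, a beta chain gene, was at 4.53 in the control, at 3.59, 3.94 and 4.13 on Day 4 and at 4.01, 4.17 and 4.75 on Day 6, and at 3.58 to 4.40 with inhibitors. For these 2 genes the control was above 6 and 5 of the 6 galactose arrays in that order, at signals where no call above background was made. Lama2, the alpha chain gene of muscle basement membranes, stood at 4.59 with C646+CPTH2 and at 2.71 to 3.61 in the other 12 arrays, and its difference from Day 6 was 1.62 (adjusted p = 0.0876 without the minimum). Of the 36 members under 5, limma called 0 in each of the 11 comparisons when no minimum was applied, with 0 to 3 at an unadjusted p under 0.05. The shares of all genes in that fit are not given here, so these counts are not read as a result about the members.

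Of the other collagens, Col5a1, a fibrillar collagen that regulates fibril width, was at 4.90 in the control, at 4.57, 4.76 and 4.71 on Day 4 and at 4.81, 4.94 and 5.02 on Day 6. With inhibitors it was at 4.90 (C646), 5.06 (CBP30), 4.48 (CPTH2), 4.21 (C646+CPTH2), 5.02 (CBP30+CPTH2) and 4.86 (TH1834). It reached 5 in 3 arrays and was lowest with C646+CPTH2. Col5a1 has 2 probe sets, and they disagree on galactose, since the other one was at 4.08 in the control and at 4.35 to 5.26 in the galactose arrays. The mean of both gave a Day 4 difference of 0.19 in place of -0.22 and a Day 6 difference of 0.46 in place of 0.03 (adjusted p = 0.716 and 0.292). With C646+CPTH2 both were below all Day 6 arrays, the other probe set at 4.59 against 4.62, 5.06 and 5.26. They disagree on whether this array was the lowest, since the other probe set was lower in the control and with CPTH2. Col23a1, a transmembrane collagen, was at 4.71 in the control, at 4.53, 4.80 and 5.09 on Day 4, at 4.83, 5.12 and 4.90 on Day 6 and at 4.57 to 4.98 with inhibitors, with no order by group. Col8a1, a collagen of the corneal and vascular endothelium that never reached 5, was at 4.87 in the control and at 3.60 to 4.31 in the galactose arrays, a Day 6 difference of -1.03 (adjusted p = 0.103 without the minimum).

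No member passed the test against the control. On Day 4 limma called 0 of 9 members, while it called 3.78% of the 6778 genes, and Col4a1 and Col4a2 were at an unadjusted p under 0.05, which held for 22.0% of genes. On Day 6 it called 0 of 9, against 5.49% of genes, and Col4a1 alone was at an unadjusted p under 0.05, against 23.7% of genes. Col4a1 to Col4a4 lay above all 6 galactose arrays in the control, as did 23.6% of genes, and these 4 had the control as the highest of all 13 arrays, as did 13.1% of genes. No member had the control below all 6 galactose arrays, an order that 27.2% of genes showed. The median collagen IV difference was -0.79 on Day 4 and -0.73 on Day 6, against 0.05 and -0.01 over all genes. Without replicate 1 of both days these medians, which are those of Col4a3, were -0.48 and -0.42, and 4 of the 5 genes had a negative difference. Both days were compared with the same single control array, which was taken to vary as the galactose replicates do, and the other 36 members were not in these counts.

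**Figure D3:**
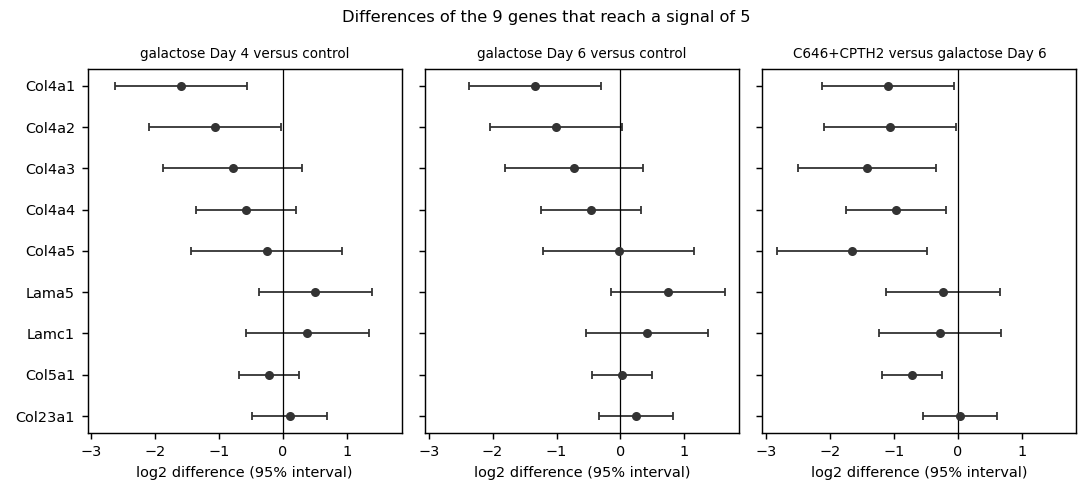
Log2 difference of the 9 genes with its 95% interval, for galactose Day 4 and Day 6 against the control and for C646+CPTH2 against galactose Day 6. Col4a1 lies at -1.59 and -1.33 in the first 2 panels, all 5 collagen IV genes lie between -1.66 and -0.97 in the third, and none passed the adjusted test.

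The collagen IV signals varied among galactose arrays of the same day. Their mean over 5 genes was 6.61 in the control, 5.13, 5.99 and 6.13 in the Day 4 arrays and 5.45, 5.84 and 6.39 in those of Day 6. Replicate 1 of both days had the lowest mean of its day, and 5 members, 4 of them collagen IV genes, were below the other 4 galactose arrays in both of these replicates, as were 13.2% of genes. The lens epithelium markers had the same extremes as the collagen IV mean, but not the same order throughout. The mean of the 8 markers kept was 7.33 in the control, 5.40, 6.19 and 6.44 on Day 4, 5.63, 6.57 and 6.64 on Day 6, and 6.47 (C646), 6.22 (CBP30), 5.97 (CPTH2), 4.78 (C646+CPTH2), 6.06 (CBP30+CPTH2) and 6.81 (TH1834). It was highest in the control and lowest with C646+CPTH2, as the collagen IV mean was. With TH1834 it was above all galactose arrays, while the collagen IV mean of 5.82 was below the 6.39 of Day 6 replicate 3. Of these markers, Foxe3, Pdgfra, Aqp1 and Six3 fell against the control on both days. Cdh1, Cp, Gja1 and Pax6 were not called on either day. They differed by -0.59, -0.84, -0.43 and -0.35 on Day 4 and by 0.19, -0.26, -0.01 and -0.19 on Day 6. The part of the epithelium in the collagen IV differences was not tested.

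**Figure D4:**
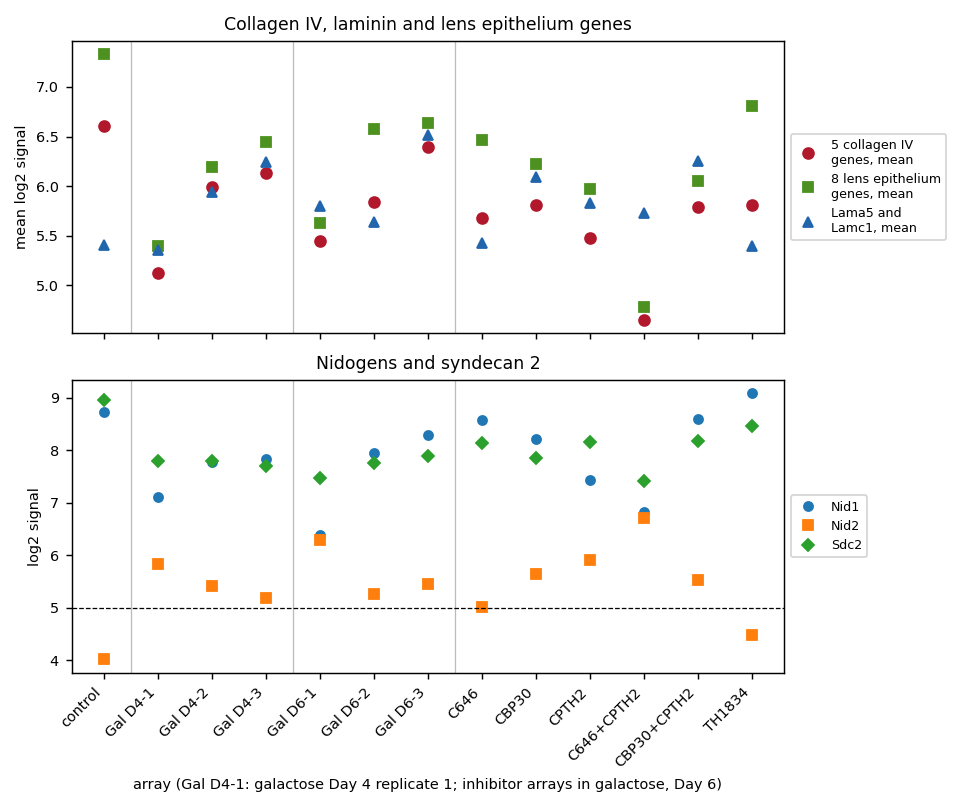
Mean log2 signal per array of the 5 collagen IV genes, of 8 lens epithelium markers and of Lama5 with Lamc1 (upper panel), and log2 signal of Nid1, Nid2 and Sdc2 (lower panel, dashed line at 5). The collagen IV and epithelium means are both highest in the control, at 6.61 and 7.33, and lowest with C646+CPTH2, at 4.65 and 4.78, while Nid2 is lowest in the control and highest with C646+CPTH2.

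Between galactose Day 4 and Day 6 no member passed the test. All 9 differences were positive, from 0.03 for Lamc1 to 0.26 for Col4a1, while 62.4% of genes had a negative difference. The interval was -0.47 to 0.99 for Col4a1. Col5a1 differed by 0.25 (-0.08 to 0.58), at 4.57 to 4.76 on Day 4 and 4.81 to 5.02 on Day 6. Its other probe set was at 4.35 to 4.88 and at 4.62 to 5.26, ranges that overlap. All 9 adjusted p values were 0.883 to 0.988. limma called 0 of 9 members, as it called 0.0% of genes, and 0 members were at an unadjusted p under 0.05, against 5.36% of genes. The common sign did not hold without replicate 1 of both days, when 2 of 9 differences were negative and those of collagen IV were -0.01 to 0.15.

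Of the inhibitor arrays, C646+CPTH2 stood apart. Its collagen IV mean was 4.65, against 5.48 to 5.82 in the other 5 inhibitor arrays. Compared with galactose Day 6, Col4a5 differed by -1.66 (-2.83 to -0.48, adjusted p = 0.180), Col4a3 by -1.42 (adjusted p = 0.202), Col4a1 by -1.10 (adjusted p = 0.275), Col4a2 by -1.07 (adjusted p = 0.289) and Col4a4 by -0.97 (adjusted p = 0.221). Col5a1 differed by -0.72 (adjusted p = 0.155), or by -0.555 with the mean of its probe sets (adjusted p = 0.305). limma called 0 of 9 members, against 0.856% of genes, and 6 members were at an unadjusted p under 0.05 with a lower signal, against 7.55% of genes. The same 6, Col5a1 by the brighter of its 2 probe sets only, were lowest of all 13 arrays in this array, as were 12.8% of genes. Lama5 and Lamc1 differed by -0.23 and -0.28 (adjusted p = 0.842 and 0.813). The call depended on 1 replicate. Without galactose Day 4 replicate 1, whose values enter the spread, Col4a5 passed (adjusted p = 0.0391). Without replicate 1 of both days Col4a2, Col4a3 and Col4a5 passed, at -1.38, -1.73 and -1.88 (adjusted p = 0.0262, 0.0224 and 0.01). Day 6 replicate 1 was the lowest of its day in collagen IV mean, so leaving it out also lowers these differences. The count of all genes called in this comparison moved too, from 58 with all arrays to 16 to 402 over the alternatives. Outside collagen IV, Nid1, Nid2 and Ntn4 also passed in an alternative (lowest adjusted p in limma = 0.0271, 0.0218 and 0.0371). Of the epithelium markers, 7 of 8 had a negative difference with C646+CPTH2 when all arrays were used, as had 47.0% of all genes. The median of the markers was -1.56, against 0.03 over all genes. None was called, and 5 were at an unadjusted p under 0.05, against 16.5% of all genes. The macrophage marker Cd68 rose, at 7.51 against 4.73, 5.21 and 4.32 on Day 6 (2.75, adjusted p = 0.0434), Lyz2 was at 3.45 against 3.56, 4.33 and 3.78, and the other 8 macrophage markers did not reach 5. Cd68 and Lyz2 also differed from Day 6 in other arrays, by -1.16 to 2.11 with CPTH2 and by -1.03 to 1.72 with CBP30+CPTH2. The collagen IV means there were 5.48 and 5.79, so a higher macrophage marker was not particular to the C646+CPTH2 array. The part of these cell types in the collagen IV values was not tested.

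In the other 5 inhibitor arrays no member passed the test. With C646 the 9 members differed by -0.59 to -0.02 and all 5 collagen IV genes were within 0.38 of Day 6. With CBP30 the differences were -0.20 to 0.26, with CPTH2 -0.59 to -0.07, with CBP30+CPTH2 -0.33 to 0.43 and with TH1834 -0.80 to 0.16. Without replicate 1 of both days all 5 collagen IV genes had a negative difference in each of these arrays, at -0.69 to -0.15 with C646, -0.40 to -0.15 with CBP30, -0.82 to -0.24 with CPTH2, -0.63 to -0.09 with CBP30+CPTH2 and -0.49 to -0.08 with TH1834 (adjusted p = 0.132 to 0.920). Day 6 replicate 1 had the lowest collagen IV mean of its day, at 5.45 against 5.84 and 6.39. Leaving it out therefore lowers each of these differences. With all arrays, the largest difference was that of Lama5 with TH1834, at 5.35 against 5.92 to 6.60 on Day 6 (-0.80, -1.69 to 0.09, adjusted p = 0.405). With CPTH2, 4 members, Col4a1 and Col4a5 among them, were below all 3 Day 6 arrays, as were 13.1% of genes. limma called 0 of 9 members with C646, CBP30, CPTH2, CBP30+CPTH2 and TH1834, against 0.0%, 0.0%, 0.0295%, 0.0% and 0.059% of genes. None was at an unadjusted p under 0.05 in these 5 comparisons, against 4.06%, 15.8%, 12.7%, 20.8% and 14.0% of genes. The 6 treatments were compared with the same 3 Day 6 arrays, so their differences are not independent.

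**Figure D5:**
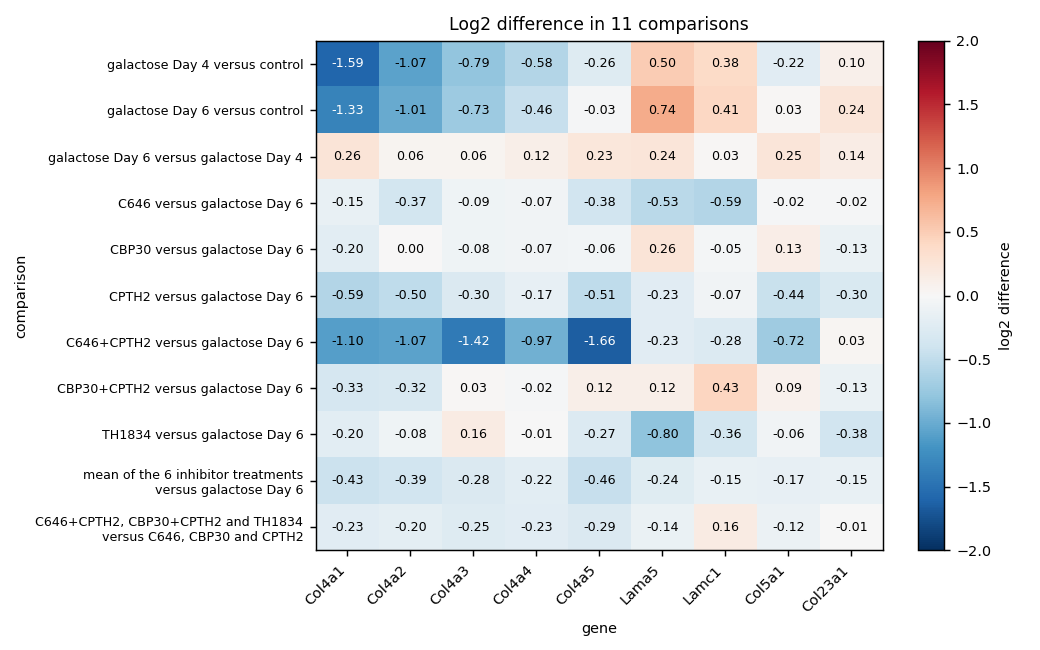
Log2 difference of the 9 genes that reach 5 in the 11 comparisons, as colour and as a value in each cell. The strongest blue cells are Col4a5 and Col4a3 with C646+CPTH2, at -1.66 and -1.42, and Col4a1 on galactose Day 4 and Day 6, at -1.59 and -1.33.

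Over the mean of the 6 treatments, all 9 members were lower than galactose Day 6, by -0.46 to -0.15, while the median of all genes was 0.11 (adjusted p of the members 0.399 to 0.767). limma called 0 of 9, against 0.103% of genes, and 0 were at an unadjusted p under 0.05, against 20.9% of genes. Without the C646+CPTH2 array the collagen IV differences were -0.29 to -0.06, in place of -0.46 to -0.22. Without replicate 1 of both galactose days they were -0.71 to -0.29 (adjusted p = 0.0693 to 0.422). Leaving out Day 6 replicate 1, the lowest of its day in collagen IV mean, lowers these differences in itself. The arrays of C646+CPTH2, CBP30+CPTH2 and TH1834 were also compared with those of C646, CBP30 and CPTH2 alone. Collagen IV differed by -0.29 to -0.20 (adjusted p = 0.867 to 0.919), with 0 of 9 members and 0.0% of genes called and 0 members at an unadjusted p under 0.05, against 7.1% of genes. Without C646+CPTH2 these values turned positive, at 0.04 to 0.25.

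Among 13 other basement membrane genes on the array, Nid1, Nid2, Sparc and Ntn4 reached 5, and the nidogens lay on opposite sides of the control. Nid2, encoding nidogen-2, was at 4.02 in the control, at 5.83, 5.41 and 5.18 on Day 4 and at 6.29, 5.26 and 5.46 on Day 6, and with inhibitors at 5.01 (C646), 5.64 (CBP30), 5.91 (CPTH2), 6.71 (C646+CPTH2), 5.53 (CBP30+CPTH2) and 4.48 (TH1834). The control was below every other array, and Nid2 rose on Day 6 by 1.65 (standard error 0.40, adjusted p = 0.0478). On Day 4 the difference was 1.45 (adjusted p = 0.0749). Of all genes, 5.49% were called on Day 6. The Nid2 value of the control is under 5, so the size is not exact. It also means that Nid2 was kept for the test only through arrays in which it was higher. The Day 6 call was lost in 6 of the 14 alternatives examined. Nid1, encoding nidogen-1, was at 8.73 in the control, at 7.12, 7.78 and 7.83 on Day 4 and at 6.38, 7.94 and 8.29 on Day 6, with differences of -1.16 and -1.19 (adjusted p = 0.325 and 0.286). Without replicate 1 of both days these were -0.93 and -0.62 (adjusted p = 0.0449 and 0.0974), so the Day 4 difference passed there. With inhibitors Nid1 was lowest at 6.82 with C646+CPTH2 and highest at 9.08 with TH1834. Ntn4, the laminin-binding netrin-4, was at 6.02 in the control, at 4.69, 4.51 and 4.67 on Day 4 and at 4.47, 5.12 and 5.41 on Day 6. The control was above all 12 other arrays, at a Day 4 difference of -1.40 (adjusted p = 0.0520, and 0.019 to 0.126 over 14 alternatives, of which 6 called it). Sparc, a collagen-binding glycoprotein, differed by -0.50 and -0.05 (adjusted p = 0.693 and 0.970).

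Of 18 receptors for laminin and collagen on the array, 9 reached 5, as did 37.3% of all genes, and 1 was called. Against the control, limma called 3.78% of all genes on Day 4 and 5.49% on Day 6. Sdc2, encoding the heparan sulfate proteoglycan syndecan-2, was at 8.96 in the control, at 7.79, 7.79 and 7.70 on Day 4 and at 7.47, 7.76 and 7.89 on Day 6. It fell by 1.20 on Day 4 (standard error 0.22, adjusted p = 0.0280) and by 1.25 on Day 6 (adjusted p = 0.0192) on the log2 scale. The control stood clear of the galactose arrays, which spanned 7.47 to 7.89, and inhibitor arrays were at 7.41 (C646+CPTH2) to 8.46 (TH1834). Itgb1, the beta chain of most laminin-binding integrins, differed by -0.08 and -0.07 (adjusted p = 0.911 and 0.902), Itgb5 by -0.69 and -0.81 (adjusted p = 0.195 and 0.128) and Sdc4, syndecan-4, by 0.25 and 0.48 (adjusted p = 0.713 and 0.417). With C646+CPTH2, Sdc4 was at 6.67 against 7.85, 8.17 and 8.38 on Day 6 (-1.46, adjusted p = 0.0877), and 8 of the 9 receptors had a negative difference there, as had 47.0% of all genes.

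The genes that fold and crosslink collagen were kept in larger number, 17 of 25 on the array, against 37.3% of all genes. None was called in any of the 11 comparisons, in which 0.0% to 5.49% of all genes were called. The folding and crosslinking genes include the chaperones and prolyl and lysyl hydroxylases that act on new collagen chains. On Day 4, 11 of 17 were below the control with a median of -0.40 and 5 at an unadjusted p under 0.05, against 45.3% of all genes below the control and 22.0% at that p. Among those of highest signal, P4ha1, a prolyl hydroxylase subunit, differed by -1.19 (adjusted p = 0.116), the lysyl hydroxylase gene Plod2 by -1.05 (adjusted p = 0.242), P4hb, protein disulfide isomerase, by 0.62 (adjusted p = 0.287) and the cyclophilin gene Ppib by 0.18 (adjusted p = 0.823). With C646+CPTH2, 14 of 17 were below Day 6, as were 47.0% of all genes, with a median of -0.46 against 0.03. Of 24 matrix proteases and inhibitors on the array 8 were kept and none was called, against the same shares of all genes. The tissue inhibitors of metalloproteinases Timp1, Timp2 and Timp3 differed on Day 6 by 1.06, -0.11 and -0.83 (adjusted p = 0.252, 0.848 and 0.0779), and Htra1, a secreted serine protease, by 0.01 (adjusted p = 0.995). With C646+CPTH2, 7 of the 8 were below Day 6, with a median of -0.68 and 3 at an unadjusted p under 0.05, a p that 16.5% of all genes reached. None of 14 other matrix proteins on the array, fibronectin and fibrillin among them, reached 5, the highest being 4.04.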

How the data were processed

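Total RNA from 13 lenses in culture was hybridised to GeneChip Rat Gene 2.0 ST arrays. The log2 signals were used as deposited by the authors, who preprocessed the arrays in R and kept genes that reach a signal of 5. The background correction, normalization and probe summary are not given in the sources used here, and no normalization was added. Of 36685 probe sets, 18511 carry 1 gene symbol in the platform annotation, 575 several and 17599 none. The probe set of highest mean was taken per gene. Groups follow the sample titles, and 0 columns were unmapped. The label of the CBP30+CPTH2 sample names CPTH2 at both doses, and the 10 µM was taken as CBP30 from the title and the methods.

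Each condition was 1 group in a linear model of the 6778 genes at 5 or more in at least 1 array (limma 3.58.1, R 4.3.3, lmFit and eBayes, two-sided, Benjamini-Hochberg adjusted p under 0.05 over all 6778). The residual degrees of freedom were 4, those of the prior 4.97, and the prior SD was 0.221. Lone arrays borrow the spread of the galactose replicates, and the number of arrays limits the precision. The fit was tested on simulated data. Tables and figures were made with matplotlib 3.10.9, numpy 2.4.6 and pandas 2.3.3 under Python 3.11.15. Alternatives were other signal minimums, the mean of probe sets, quantile normalization, median centring, other variance priors, all 6 galactose arrays as reference, a replicate block and leaving out arrays.

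The members, the marker lists and the lists of basement membrane partners, receptors, folding and crosslinking genes, proteases and inhibitors, and other matrix proteins were chosen with earlier results of these data known. The text names all collagen IV and laminin genes, other collagens that reach 5, the 4 of highest mean among those that do not, and of each matrix list the called genes and up to 4 of highest signal. Col8a1, Col1a1, Col1a2 and Col3a1 were named in addition after their values were seen. Promoter windows are RefSeq's, in GRCr8, and all 45 members matched RefSeq by symbol. Opacity, histology and RT-qPCR were not analysed here.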

Additional observations from a re-analysis of the deposited data

How the results depend on the processing

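No member was called in any of the 11 comparisons under any alternative, with 1 exception. For C646+CPTH2 against galactose Day 6, the members called were 0 to 1 when each galactose array was left out in turn, the 1 being Col4a5 without Day 4 replicate 1. They were 3 with the first replicate of both days left out. In place of 9 members that reach 5 in at least 1 array, 3 are at 5 in every array. Over the alternatives Col4a1 differed from the control by -1.80 to -1.28 on Day 4 (adjusted p = 0.0599 to 0.180) and by -1.63 to -1.13 on Day 6 (0.0608 to 0.238). Signs turned for values near 0. Against the control on Day 4, Col4a5 was at 0.198 when Day 4 replicate 1, or the first replicate of both days, was left out (leaving out 1 array gave -0.487 to 0.198), Col23a1 at -0.0408 when Day 4 replicate 3 was (-0.0408 to 0.239), and Col5a1 at 0.187 with the mean of its probe sets. On Day 6, Col4a5 was at 0.192 and Sparc at 0.37 when Day 6 replicate 1, or the first replicate of both days, was left out (-0.218 to 0.192 and -0.327 to 0.37 over single arrays), and Col5a1 at -0.023 when Day 6 replicate 3 was (-0.023 to 0.083) and at 0.464 with the mean of its probe sets. With C646+CPTH2, Col23a1 was at -0.00203 after median centring and at -0.0273 when Day 6 replicate 1, or the first replicate of both days, was left out (-0.0273 to 0.116), and Lamc1 at 0.0263 when Day 6 replicate 3 was (-0.515 to 0.0263). The call of Sdc2 was lost on Day 4 without the signal minimum and when replicate 2 of either day or Day 4 replicate 3 was left out (adjusted p 0.0167 to 0.0789 over the alternatives), and on Day 6 without Day 6 replicate 2 (0.0134 to 0.0568). That of Nid2 on Day 6 had an adjusted p of 0.0157 to 0.108. The count of all genes called was 256 on Day 4 (83 to 662), 372 on Day 6 (118 to 903) and 58 with C646+CPTH2 (16 to 402). The median difference of all genes was 0.17 with CPTH2, 0.15 with CBP30+CPTH2, 0.11 with TH1834 and 0.11 for the mean of the 6 treatments, and member values are on the deposited scale. Whether replicate numbers pair the samples of the 2 days is not known. Each array was taken as its deviation, gene by gene, from the mean of its day. Correlations of these deviations, not of the signals, were 0.341, 0.0765 and 0.251 between same-numbered arrays and -0.295 to 0.138 between the others. The deviations of a day sum to 0 for each gene, so these correlations are not independent and negative values are built in. Of the Day 4 arrays, 2 of 3 correlated best with their own number. With the replicate block, 0 members and 0 genes were called between Day 6 and Day 4.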
